A study of Mus musculus with 23 samples.

Results

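A set of 10 genes around Ins2 on mouse chromosome 7 were followed: Igf2, H19, Th, Cd81, Tssc4, Kcnq1ot1, Cdkn1c, Slc22a18, Phlda2 and Nap1l4. They were taken by symbol as the neighbours of Ins2 and the imprinted genes beyond them, and make up 10 of the 45706 gene identifiers in the count table. The libraries came from hippocampal RNA of female mice, 12 of them Ins2+/+ (WT) and 11 Ins2-/- (KO), with 1 library per sample. Nothing distinguishes the groups in the labels beyond the Ins2 genotype. The strain, the age and the way the Ins2 allele was made, including whether it carries foreign sequence, are not given in the sources used here. A second mouse insulin gene, Ins1, is not part of the labelled genotype. The series title places the samples in a study of insulin made in the brain and of learning and memory in females. The comparison asked whether the neighbours of the deleted gene keep their RNA levels when Ins2 is absent.

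An imprinted gene is read mainly from the copy inherited from one parent, and imprinted genes lie in groups that share a control region. In the Igf2 and H19 domain, the growth factor gene Igf2 is read from the paternal copy in most tissues, and the noncoding RNA H19 from the maternal copy. Igf2 is an exception in the choroid plexus and the meninges of the brain, where both copies are read and where most brain Igf2 is made. In the Kcnq1ot1 domain, the long noncoding RNA Kcnq1ot1 is read from the paternal copy and silences neighbours such as Cdkn1c, Phlda2 and Slc22a18 on that copy. By position Ins2 lies between Igf2 and Kcnq1ot1. Th, which encodes the rate-limiting enzyme of catecholamine synthesis, is the nearest member on the Kcnq1ot1 side. The counts do not separate the parental copies, so imprinting itself was not measured here.

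All 10 genes lie on chromosome 7 (GRCm38, GENCODE M21). Ins2 spans 142678656 to 142743381 on the minus strand. Igf2 (ENSMUSG00000048583) spans 142650766 to 142666816 on the minus strand, with a gap of 11.8 kb to Ins2. H19 (ENSMUSG00000000031) spans 142575529 to 142578143, on the same side at 100.5 kb. On the other side, Th (ENSMUSG00000000214) spans 142892752 to 142931128 with a gap of 149.4 kb. The tetraspanin gene Cd81 (ENSMUSG00000037706, 143052739 to 143067934) and Tssc4 (ENSMUSG00000045752, 143069249 to 143071093) follow at 309.4 and 325.9 kb. Kcnq1ot1 (ENSMUSG00000101609) spans 143203458 to 143296549 at 460.1 kb. The 4 farthest are Cdkn1c (ENSMUSG00000037664, 143458339 to 143461050), Slc22a18 (ENSMUSG00000000154, 143473736 to 143499334), Phlda2 (ENSMUSG00000010760, 143501545 to 143503150) and Nap1l4 (ENSMUSG00000059119, 143513579 to 143549106), at 715.0 to 770.2 kb. Several members overlap a gene on the opposite strand, among them Cd81 with R74862 (2236 counts over all libraries), Igf2 with Igf2os (156 counts), Kcnq1ot1 with Kcnq1 (82 counts) and Tssc4 with Trpm5 (58 counts). The library kit marks strand, but how strand was used in counting is not given, so the division of reads in these overlaps is uncertain. Cdkn1c also overlaps Gm44732, and Igf2 overlaps Gm49394 on its own strand, and neither was in the table.

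The RefSeq promoter table on GRCm38.p6, which holds 250 bases before and 50 bases after each start, had an entry for 7 of the 10 members. Of these windows, 3 are shown, each read 5′ to 3′ on the minus strand of the gene: the most downstream of 4 Igf2 windows, because Igf2 varied most across libraries among the members with usable counts; the Th window, because Th was near 0 in all libraries but 1; and the Kcnq1ot1 window, which is the start of the silencing RNA of the second domain. Capitals mark matches on either strand to GGGCGG (the GC box), CCAAT (the CCAAT box) or TGACGTCA (the CRE, at which factors responding to cyclic AMP bind).
Igf2, chr7:142657447-142657746: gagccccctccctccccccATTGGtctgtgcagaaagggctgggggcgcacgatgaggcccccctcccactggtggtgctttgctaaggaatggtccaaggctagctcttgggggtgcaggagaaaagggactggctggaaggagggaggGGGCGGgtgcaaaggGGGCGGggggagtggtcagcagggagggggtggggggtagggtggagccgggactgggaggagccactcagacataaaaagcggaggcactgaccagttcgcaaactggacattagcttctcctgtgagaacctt
Th, chr7:142899946-142900245: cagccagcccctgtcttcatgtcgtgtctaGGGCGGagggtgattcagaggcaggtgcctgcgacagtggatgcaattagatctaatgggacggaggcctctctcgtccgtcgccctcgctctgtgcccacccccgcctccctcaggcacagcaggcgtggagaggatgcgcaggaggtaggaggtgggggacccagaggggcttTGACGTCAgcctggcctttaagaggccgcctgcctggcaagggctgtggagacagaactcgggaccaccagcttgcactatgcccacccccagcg
Kcnq1ot1, chr7:143296498-143296797: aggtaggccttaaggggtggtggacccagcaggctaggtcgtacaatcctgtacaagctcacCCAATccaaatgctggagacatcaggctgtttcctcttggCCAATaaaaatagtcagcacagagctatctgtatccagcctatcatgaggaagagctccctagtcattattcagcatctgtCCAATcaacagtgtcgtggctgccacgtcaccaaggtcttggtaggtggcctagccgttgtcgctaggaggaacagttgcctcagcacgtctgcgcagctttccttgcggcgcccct
The Igf2 window holds 2 GC boxes and 1 CCAAT box, the Th window 1 GC box and 1 CRE, and the Kcnq1ot1 window 3 CCAAT boxes. Over all 32851 promoter windows of the table, 35.7% hold a GC box, 37.4% a CCAAT box and 1.79% a CRE. TATAAA and the E-box CACGTG were also searched and are in 13.6% and 7.15% of all windows, but in none of these 3. These motifs do not overlap each other within the windows shown, and the matches are letters only, with no binding measured.

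Before the members, the libraries were checked. Library totals ran from 13792274 to 22953261 counts. Ins2 had 0 counts in all 11 KO libraries and 26 counts over the WT libraries, of which 18 lay in WT library 17, with 5 WT libraries at 0. Ttr, which encodes transthyretin and is the most abundant choroid plexus mRNA, split the libraries into separate ranges. In 18 libraries (10 WT, 8 KO) its count was 7 to 1173, and it was 43446 to 296745 in 5 libraries, namely 14 and 17 of WT and 2, 6 and 12 of KO. These are called low-Ttr and high-Ttr libraries, split at a Ttr count of 10000. The summed level of 15 choroid plexus genes, Ttr among them, was 226.7 to 410.4 CPM (counts scaled to a common library size, with TMM factors) in low-Ttr libraries and 4867 to 30270 CPM in high-Ttr libraries. Ttr alone was 2877 CPM in WT library 14 and 18380 CPM in WT library 17, the lowest and highest of these sums. Much of this gap therefore follows from the split itself. The summed level of 16 genes of the meninges, the membranes around the brain, was 44.1 to 232.3 CPM in the first class and 167.7 to 474.2 CPM in the second, and all 16 were detected in both. KO library 8 stood apart in another way: 13 hypothalamic genes summed to 1606 CPM there against 2.73 to 12.9 CPM in the other 22 libraries, and 12 genes of hippocampal neurons summed to 336.1 CPM against 1098 to 1744 CPM. Results that rest on it are also given without it. In bulk tissue, fewer cells of a type and less RNA per cell cannot be told apart.

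The members differed widely in level. Per kilobase of exon, the median over 23 libraries was highest for Cd81, at 89.7 CPM per kb, then Nap1l4, a histone chaperone gene, at 32.9, and Tssc4 at 12.5. Igf2 followed at 5.22 CPM per kb, Cdkn1c at 1.26 and Kcnq1ot1 at 0.696. Slc22a18 (0.21 CPM per kb), Th (0.0912), H19 (0.0243) and Phlda2 (0) were near the limit of detection. The level of Kcnq1ot1 is divided by an exon length of 93092 bases, so its 23678 counts give a low value per kilobase. The 6 members with enough counts (Igf2, Cd81, Tssc4, Kcnq1ot1, Cdkn1c and Nap1l4) passed the filter on low counts and were tested among 15828 genes. The other 4 were fitted only without the filter, among 29327 genes.

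**Figure D1:**
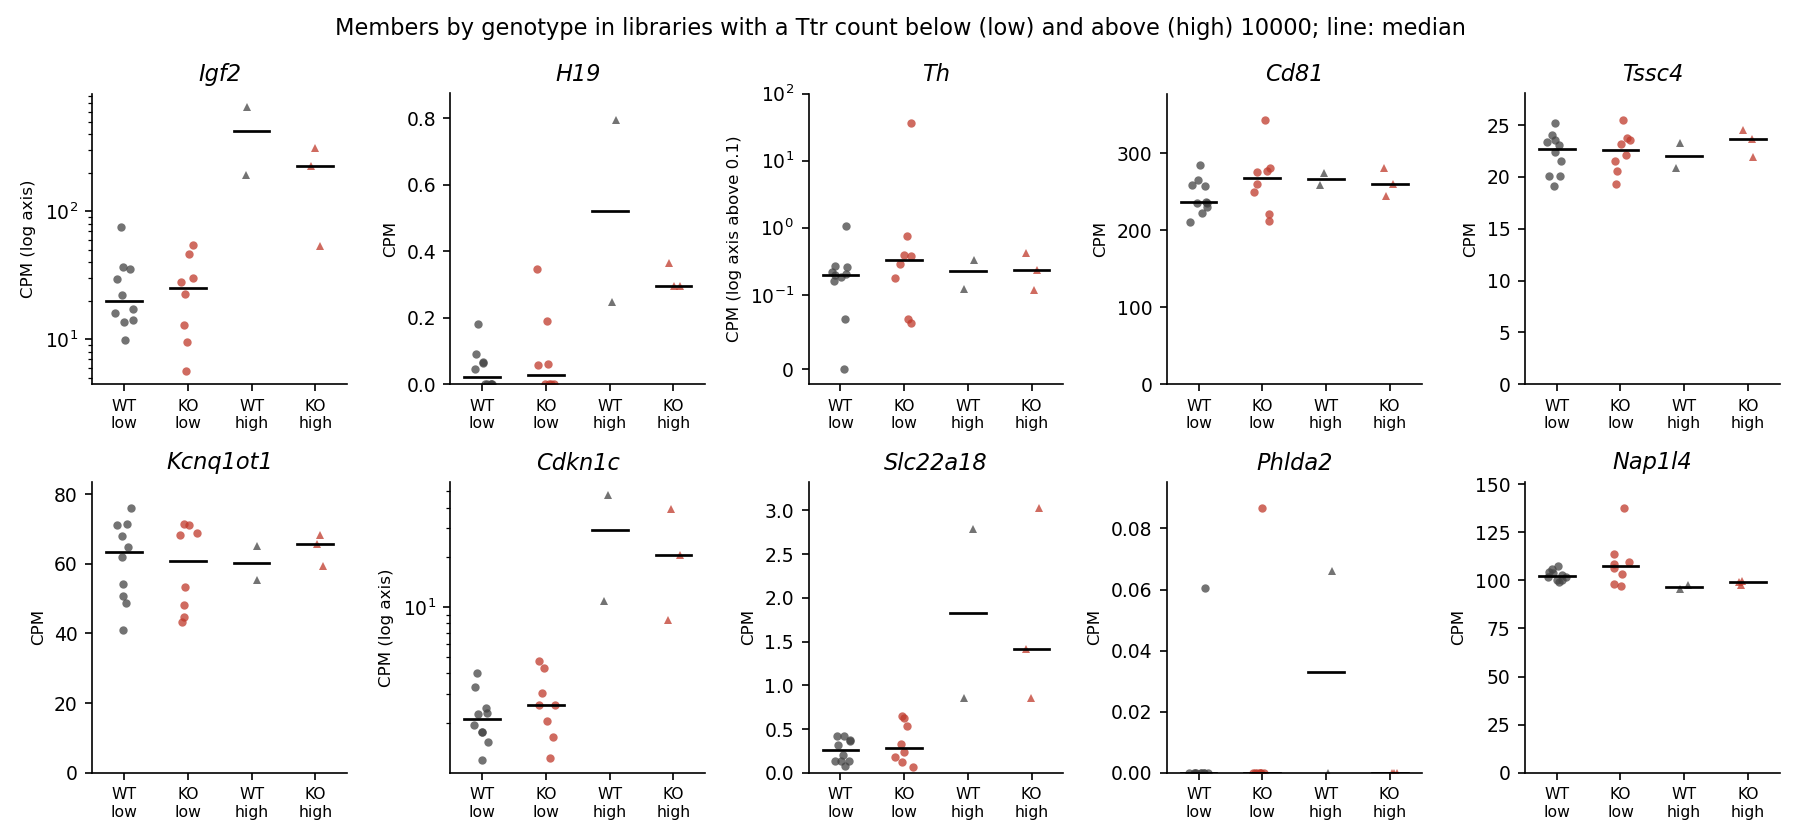
Level of each member in CPM (vertical axes, logarithmic for Igf2 and Cdkn1c and above 0.1 CPM for Th), with 1 point per library, in WT (grey) and KO (red) libraries of the low-Ttr class (circles) and high-Ttr class (triangles), and lines at the medians. Igf2, Cdkn1c and Slc22a18 were higher in the high-Ttr libraries of both genotypes, WT and KO libraries of a class overlapped for most members, and Th was high in KO library 8 alone.

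Igf2 encodes insulin-like growth factor 2, a secreted relative of insulin that acts through the IGF1 and insulin receptors. Among low-Ttr WT libraries it ran from 9.88 CPM in library 23 to 75.1 CPM in library 11, with a median of 19.8 CPM (27.1 ± 19.3, SD, n = 10). In low-Ttr KO libraries it ran from 5.66 CPM in library 22 to 55.0 CPM in library 13, with a median of 25.4 CPM (26.3 ± 17.5, SD, n = 8). The ranges of the genotypes overlapped between 9.88 and 55.0 CPM. The log2 fold change, KO minus WT, was -0.03 (SE 0.451, 95% interval -0.97 to 0.90, edgeR quasi-likelihood test, Benjamini-Hochberg adjusted p = 0.986). That interval runs from a fold of 0.511 to 1.87, so a change of a size inside it is not excluded by these libraries. The sign was not stable: the value was 0.28 without WT library 11 and -0.29 without KO library 13.

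In the high-Ttr class, Igf2 was 192.2 CPM in WT library 14 and 657.0 CPM in WT library 17. In KO it was 53.7 CPM in library 2, 225.2 CPM in library 6 and 310.1 CPM in library 12. WT library 17 was the highest of all 23, KO library 2 the lowest of this class, and the other 3 lay between them. The log2 fold change was -1.11 (SE 0.815, edgeR adjusted p = 1.0), and it was 0.04 without WT library 17 and -1.74 without WT library 14. The difference between the classes in the genotype effect was -1.08 (SE 0.932, edgeR adjusted p = 0.985), and 0.07 without WT library 17. Over all 23 libraries the log2 fold change was -0.36 (SE 0.778, edgeR adjusted p = 0.915). Leaving out KO library 12 gave -0.93, and leaving out WT library 17 gave 0.80, the 1 reversal in 23 such fits. By DESeq2 it was 0.82 (adjusted p = 0.803), and by limma voom with quality weights 0.09 (adjusted p = 0.951).

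Igf2 varied 116.2-fold across libraries, and its high-Ttr median was 10.03 times its low-Ttr median. Among the 15828 tested genes this ratio lay at the 99.7 percentile. The classes were made from a measured gene, so this is given as a description, with no test. The high-Ttr libraries were not all above the low-Ttr ones for Igf2: KO library 2 (53.7 CPM) lay below WT library 11 (75.1 CPM) and KO library 13 (55.0 CPM), which both had low Ttr. Per 100 Ttr counts, Igf2 had 6.68 counts in WT library 14, 3.57 in WT library 17, 1.73 in KO library 2, 2.60 in KO library 6 and 2.51 in KO library 12. WT library 14 was highest and KO library 2 lowest. Ttr is the gene that defined the class, so no comparison of the genotypes was made on this ratio. The meninges genes summed to 323.4 and 329.9 CPM in these WT libraries and to 167.7, 308.2 and 474.2 CPM in KO libraries 2, 6 and 12, and their part in these ratios was not tested.

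H19 gives a spliced noncoding RNA that is abundant before birth and falls after it. It had 54 counts over all 23 libraries, at most 12 in a library (WT library 14), and 9 libraries at 0. A count of 0 allows up to 3 counts, which is 0.131 to 0.218 CPM depending on the library. Low-Ttr libraries had 0 to 0.182 CPM in WT and 0 to 0.346 CPM in KO. High-Ttr libraries had 0.795 and 0.248 CPM in WT and 0.366, 0.296 and 0.296 CPM in KO. Thus all 5 high-Ttr libraries had H19 counts, while 9 of 18 low-Ttr libraries had none, at counts too low to compare the genotypes.

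Because Igf2 also differed 13.3-fold among low-Ttr libraries, it was set against the mean log2 CPM of the marker lists within that class, in 2 relations. With the meninges genes, which do not include Igf2, Pearson's r was 0.922 and Spearman's rho 0.924 (n = 18, permutation p = 1e-05 for each, the smallest the resamples can give, adjusted p = 2e-05). Without the 2 libraries farthest from the median meninges score, r was 0.909. It was 0.921 without KO library 8. The choroid plexus list includes Ttr, by which the libraries of this class were chosen, and the relation was not computed without Ttr. With the choroid plexus genes, r was 0.469 (permutation p = 0.0488, adjusted p = 0.0488) and rho 0.387 (permutation p = 0.112, adjusted p = 0.112), and r fell to 0.232 without the 2 farthest libraries (permutation p = 0.385), so that relation rested on those libraries. Without KO library 8 r was 0.522 (permutation p = 0.0311) and rho 0.471 (permutation p = 0.0583). The 3 tested genes whose log2 CPM was most like that of Igf2 over the 18 libraries were Slc6a20a (r = 0.949) and 2 genes of the meninges list, the collagen gene Col1a1 (r = 0.940) and the transporter gene Slc6a13 (r = 0.931). The libraries share depth and dissection, and these 3 values are descriptions with no p.

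No meninges gene was called by genotype in the low-Ttr class, but the list leaned one way. All 16 had a positive log2 fold change, KO minus WT, with a median of 0.55 beside 0.003 over all tested genes, and 0 of 16 were called by edgeR, DESeq2 or limma voom. An unadjusted p below 0.05 was found for 1 gene by edgeR, 1 by DESeq2 and 2 by limma voom. Of all tested genes edgeR called 0.019% in this contrast and gave 10.1% an unadjusted p below 0.05, DESeq2 gave 10.5% and limma voom 23% such a p. Without KO library 8 the median was 0.28 and 15 of 16 were positive. The 12 genes of hippocampal neurons leaned the other way in the same contrast, with 11 of 12 negative, a median of -0.29 and 0 called by edgeR or DESeq2. Of these 12, edgeR gave 3 an unadjusted p below 0.05, all lower in KO, DESeq2 gave 4 and limma voom 7, larger shares than over all tested genes. Limma voom, which called 0.872% of tested genes in this contrast (138 genes), called Prox1, a dentate gyrus gene, lower in KO. Without KO library 8, 9 of 12 were negative, with a median of -0.17, and edgeR gave 3 lower and 1 higher an unadjusted p below 0.05, where 7.85% of all tested genes had one. The part of these tissue differences in the comparison of Igf2 at a given meninges level was not tested beyond the fits that follow.  Igf2 was therefore also compared at a given level of meninges RNA. With the meninges score as a term over all 23 libraries, its log2 fold change was -0.98 (SE 0.341, edgeR p = 0.00863, adjusted p = 0.894).

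The other fits of this kind were chosen after that value was seen. The choroid plexus score in the first of them includes Ttr, which defined the classes, and no fit was made without Ttr in it. With choroid plexus and meninges scores both as terms, the Igf2 log2 fold change over all libraries was -0.66 (SE 0.171, edgeR p = 0.000818, adjusted p = 0.719). In the low-Ttr libraries alone with the meninges score as a term it was -0.57 (SE 0.122, edgeR p = 0.000169, adjusted p = 0.384), and -0.55 (SE 0.124, adjusted p = 0.322) without KO library 8. Igf2 ranked 7 by p among 15879 genes in the low-Ttr fit, in which 0.0063% of genes were called (1 gene, Ccnd1, the cyclin D1 gene) and 5.89% had an unadjusted p below 0.05. Over 91 other genes with r of at least 0.8 with the same score, the median log2 fold change was -0.06, and 1 of them, H2-Aa, lay as low as Igf2 (-0.67, SE 0.396, edgeR p = 0.107). These genes were picked by their r with the score that the fit uses as a term. They are therefore a description and no neutral comparison for Igf2. None of these fits passed the threshold for Igf2 after adjustment over all genes.

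The same comparison was made library by library. Igf2 CPM per 100 CPM of the summed meninges genes ran from 14.3 in WT library 23 to 41.6 in WT library 15, with 14.5 in WT library 24 and 21.7 to 37.9 in the other 7 low-Ttr WT libraries. In low-Ttr KO libraries it ran from 12.8 in library 22 to 23.7 in library 13. Thus 7 of 10 WT libraries lay above every KO library of the class, WT library 1 (21.7) lay among the KO values, and WT libraries 23 and 24 lay at their low end. The mean log2 ratio differed by -0.51, KO minus WT (exact permutation test, two-sided, n = 10 and 8, p = 0.033), a fold of 0.705. Leaving out 1 library at a time gave -0.60 to -0.43, with exact p from 0.00827 without WT library 23 to 0.0686 without KO library 22. The exact p rounded to 0.05 without KO library 4 and was 0.0524 to 0.0686 without WT library 5, 11, 15 or 19 or KO library 16 or 22. With 14 blood vessel genes in place of the meninges genes, the difference was -0.09 (exact permutation p = 0.838). With each meninges gene alone as the denominator, the difference was negative for 16 of 16, from -1.44 to -0.15 with 0.1 CPM added to both. These 16 ratios share the Igf2 level, and all 16 genes leaned higher in KO. The count therefore restates that lean and adds no support. In high-Ttr libraries the ratio was 59.4 and 199.2 in WT and 32.02, 73.05 and 65.4 in KO, which overlap (exact permutation p = 0.5, where 3 against 2 libraries allow 0.1 at the least). This ratio was chosen after the fits were seen, so it is no independent support for them. It joins a nearly equal Igf2 level to a meninges level that was higher in KO without passing the test.

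**Figure D2:**
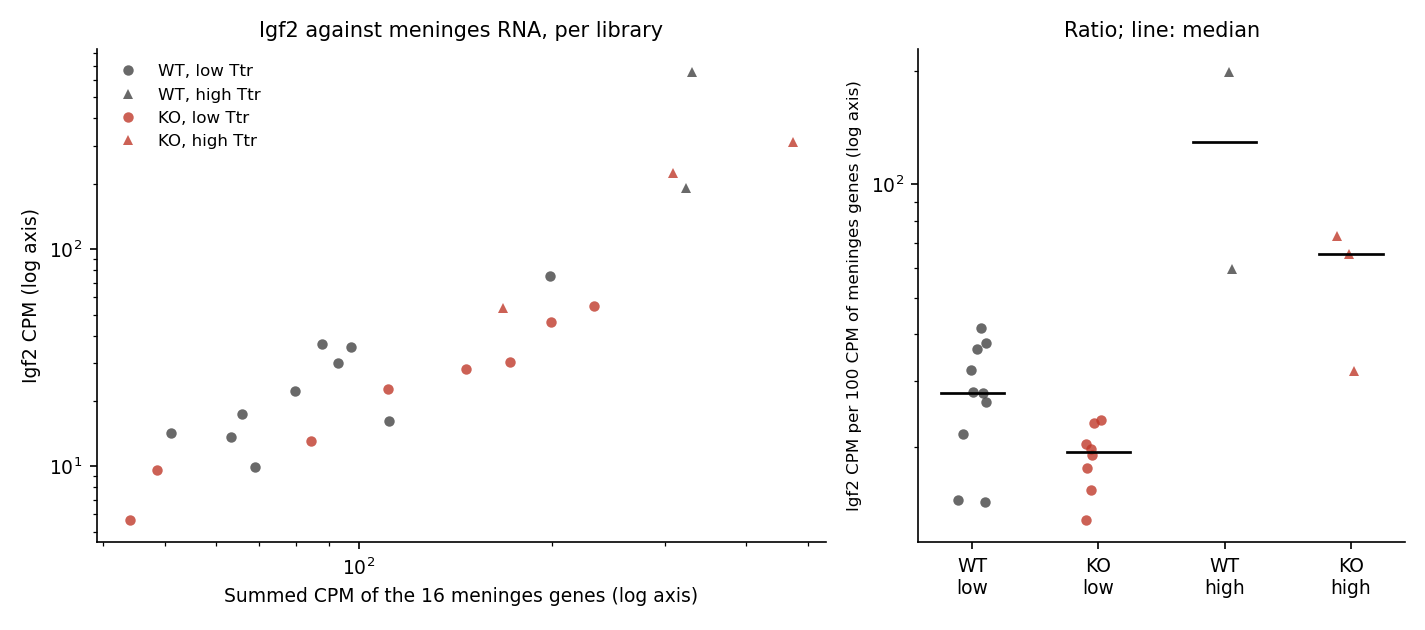
Left, Igf2 CPM against the summed CPM of 16 meninges genes, both on logarithmic axes, with 1 point per library (WT grey, KO red, circles low Ttr, triangles high Ttr). Right, Igf2 CPM per 100 CPM of meninges genes by genotype and Ttr class on a logarithmic axis, with lines at the medians: low-Ttr KO libraries ran from 12.8 to 23.7 and low-Ttr WT libraries from 14.3 to 41.6.

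The genes through which IGF2 acts or is bound showed no called change. Of 12 listed receptors and binding proteins 10 were tested, and edgeR, DESeq2 and limma voom called 0 in all libraries or in the low-Ttr class. At an unadjusted p below 0.05, edgeR had 0 in both, DESeq2 1 and 0, and limma voom 2 and 2, where 5.74%, 6.17% and 17.5% of all tested genes had such a p by these tools in all libraries, and 10.1%, 10.5% and 23% in the low-Ttr class. With KO library 8 left out, edgeR had 1 in both, which was Igfbp6, beside 4.11% (all) and 7.85% (low-Ttr) of tested genes. The medians were -0.01 and -0.05, beside 0.003 over all tested genes in both. The smallest p in low-Ttr libraries belonged to Igfbp6, which encodes a binding protein that prefers IGF2. Its mean was 8.43 ± 1.26 CPM over 10 WT libraries (SD) and 10.03 ± 3.40 CPM over 8 KO libraries (SD), and the log2 fold change was 0.26 (SE 0.171, edgeR adjusted p = 0.593). Without KO library 8 it was 0.38 (SE 0.128, edgeR p = 0.00728, adjusted p = 0.556), and 0.32 over all libraries (edgeR p = 0.0203, adjusted p = 0.967). The receptor gene Igf1r was 23.5 ± 3.34 CPM in WT and 21.7 ± 3.12 CPM in KO (log2 fold change -0.11, SE 0.101, edgeR adjusted p = 0.682).

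Th was low in all libraries but 1: it had a count in 22 of 23 libraries, and at most 24 counts outside KO library 8. Of the low-Ttr WT libraries, 9 had 0 to 0.268 CPM and library 15 had 1.08 CPM, 24 counts. In low-Ttr KO libraries it was 0.0627 to 0.742 CPM in 7 libraries and 36.7 CPM, 615 counts, in KO library 8. High-Ttr values were 0.331 and 0.124 CPM in WT and 0.427, 0.118 and 0.237 CPM in KO. Thus WT and KO libraries overlapped once KO library 8 was set aside. In the fit without the filter the log2 fold change was 4.05 in low-Ttr libraries (SE 1.13, edgeR p = 0.00197, adjusted p = 0.552) and 3.67 in all libraries (SE 1.08, edgeR p = 0.00267, adjusted p = 0.724). These were 0.15 and 0.14 without KO library 8. In both unfiltered fits 0.00682% of genes were called, and 7.73% (low-Ttr) and 6.02% (all) had an unadjusted p below 0.05.

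Of the 6 other genes of catecholamine neurons, 3 were also high in KO library 8. The dopamine transporter gene Slc6a3 had 325 counts there (19.4 CPM), the decarboxylase gene Ddc 855 counts (51.1 CPM) and the vesicular transporter gene Slc18a2 836 counts (49.9 CPM), while Dbh, which makes noradrenaline from dopamine, had 2 counts and Slc6a2 and Pnmt, markers of noradrenaline and adrenaline cells, had 0. The 6 genes of this list summed to 120.5 CPM in KO library 8 and to 11.5 to 24.7 CPM in the other 22, where WT library 15 was highest. Ttr had 7 counts in KO library 8, the fewest of all libraries. The part of hypothalamic RNA in the Th value of this library was not tested.

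Cd81, which encodes a tetraspanin of the cell surface, was the most abundant member. The low-Ttr class ran from 210.8 to 284.8 CPM in WT, with a median of 236.4 CPM, and from 211.5 to 343.3 CPM in KO, with a median of 267.4 CPM. The highest value was that of KO library 8, and the ranges overlapped. KO minus WT, the log2 fold change was 0.12 (SE 0.0769, 95% interval -0.04 to 0.28, edgeR adjusted p = 0.576), and 0.06 without KO library 8. The high-Ttr class held 258.3 and 274.7 CPM in WT and 243.9, 259.9 and 281.5 CPM in KO. Over all libraries the log2 fold change was 0.09 (SE 0.0668, edgeR adjusted p = 0.781). Its level was most like that of the fatty acid desaturase genes Scd1 and Scd2 (r = 0.948 for each, n = 18 low-Ttr libraries) and of Kazn (r = 0.942).

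Tssc4 encodes a protein of the spliceosome assembly pathway and had the narrowest spread of the members over all libraries, 1.33-fold. That order rested on KO library 8, the highest for Nap1l4 (1.435-fold). Over the 12 WT libraries Nap1l4 was narrower, 1.12-fold against 1.32-fold for Tssc4. Its low-Ttr level was 19.1 to 25.3 CPM in WT, with a median of 22.7 CPM, and 19.4 to 25.5 CPM in KO, with a median of 22.6 CPM. These ranges were almost the same. Its log2 fold change was 0.01 (SE 0.0604, 95% interval -0.11 to 0.14, edgeR adjusted p = 0.949), so a change of more than 1.1-fold upward or to less than 0.926 lay outside the interval. The high-Ttr values of 23.2 and 20.9 CPM in WT and 24.6, 21.95 and 23.7 CPM in KO lay in the same range.

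Kcnq1ot1 is the noncoding RNA that silences the domain on the paternal copy. Its low-Ttr level was 41.1 to 75.9 CPM in WT, with a median of 63.3 CPM, and 43.3 to 71.5 CPM in KO, with a median of 60.9 CPM, and the ranges overlapped. Its high-Ttr level was 65.1 and 55.4 CPM in WT and 68.4, 65.7 and 59.3 CPM in KO. The log2 fold change was -0.05 in low-Ttr libraries (SE 0.124, 95% interval -0.31 to 0.21, edgeR adjusted p = 0.901) and -0.01 in all libraries (SE 0.106, edgeR adjusted p = 0.982), and its sign changed with single libraries. Its high-Ttr median was 1.03 times its low-Ttr median. Between members, its log2 CPM had a negative r with each of the other 5 tested, from -0.113 with Nap1l4 to -0.45 with Cd81 (n = 18 low-Ttr libraries, a description).

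Cdkn1c encodes p57, an inhibitor of cyclin-dependent kinases that is read from the maternal copy. Low-Ttr libraries held 1.21 to 3.99 CPM in WT, with a median of 2.12 CPM, and 1.23 to 4.72 CPM in KO, with a median of 2.57 CPM. High-Ttr libraries held 10.9 and 47.5 CPM in WT and 8.41, 20.6 and 39.4 CPM in KO. All 5 high-Ttr libraries of both genotypes lay above all 18 low-Ttr ones, a pattern that 1.21% of tested genes had. Its high-Ttr median was 8.99 times its low-Ttr median, at the 99.7 percentile of tested genes. Per 100 Ttr counts it had 0.377 and 0.258 counts in WT and 0.271, 0.238 and 0.319 counts in KO, values from which, as for Igf2, no comparison of the genotypes was made.

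Within a class the genotypes overlapped for Cdkn1c. The log2 fold change was 0.29 in low-Ttr libraries (SE 0.336, 95% interval -0.40 to 0.99, edgeR adjusted p = 0.759), 0.15 without KO library 8, and -0.36 in high-Ttr libraries (SE 0.561, edgeR adjusted p = 1.0). Without WT library 14 the high-Ttr value was -1.06, and without WT library 17 it was 1.08. Over all libraries it was 0.29 (SE 0.699, edgeR adjusted p = 0.923), with -0.40 when KO library 12 was left out and 1.45 when WT library 17 was. With both marker scores as terms it was 0.05 (SE 0.165, edgeR adjusted p = 0.974). In low-Ttr libraries Cdkn1c and Igf2 had r = 0.677 (n = 18), and the genes most like Cdkn1c were Serpinb6a (r = 0.928), Htra3 (r = 0.868) and the histone gene Hist1h1c (r = 0.853).

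Slc22a18, which encodes an organic cation transporter-like protein and is imprinted with Cdkn1c, had 245 counts in all and was below the filter. The low-Ttr level was 0.0719 to 0.424 CPM in WT and 0.0681 to 0.649 CPM in KO. The high-Ttr level was 0.861 and 2.79 CPM in WT and 0.854, 1.42 and 3.02 CPM in KO. As for Cdkn1c, every high-Ttr library lay above every low-Ttr one, and the genotypes overlapped in both classes. Its log2 fold change in low-Ttr libraries was 0.41 (SE 0.420, edgeR adjusted p = 0.749), and 0.20 without KO library 13. Phlda2, a growth-restraining gene of the placenta, had 4 counts in 3 libraries and 0 in the other 20, so its level was not detectable at this depth in either genotype.

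Nap1l4 is the farthest member from Ins2. In low-Ttr WT libraries it was 98.9 to 107.3 CPM (102.7 ± 2.79, SD, n = 10), and in low-Ttr KO libraries 97.0 to 137.4 CPM (109.2 ± 12.7, SD, n = 8), with KO library 8 highest and KO library 4 next at 113.7 CPM. The ranges overlapped, and the KO spread was wider. Its log2 fold change was 0.09 (SE 0.0503, 95% interval -0.01 to 0.19, edgeR p = 0.0869, adjusted p = 0.528), and 0.04 without KO library 8. High-Ttr values were 97.4 and 95.8 CPM in WT and 97.6, 99.0 and 99.9 CPM in KO. All 3 KO values were above both WT values there, as the groups of 17.3% of tested genes did not overlap in this class. The genes most like it were Hexim2 (r = 0.957), Brinp3 (r = 0.935) and Rims3 (r = 0.933) over 18 libraries, and these fell to 0.841, 0.743 and 0.743 without KO library 8.

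Over the 6 tested members, edgeR called 0 in each comparison. In all libraries 0.0126% of the tested genes were called (2 genes, Ccnd1 and Gm26793, neither a member), in low-Ttr libraries 0.019% (these and Cenps) and in high-Ttr libraries 0.00632% (Ccnd1). Ccnd1 also lies on distal chromosome 7, but farther than 1 Mb from Ins2. It was lower in KO over all libraries (log2 fold change -1.15, SE 0.0661, edgeR adjusted p = 5.71e-11). The part of its position in this change was not tested. In the test of the difference between classes, 0% were called, with 4.02% at an unadjusted p below 0.05. At an unadjusted p below 0.05 edgeR also found 0 of 6 members in each of these 4 comparisons, against 5.74%, 10.1% and 2.42% of tested genes in the first 3. DESeq2 and limma voom with quality weights called 0 members in each. By DESeq2 1 member, Cdkn1c, had an unadjusted p below 0.05 in all libraries (DESeq2 log2 fold change 1.44, adjusted p = 0.675), as 6.17% of tested genes did by DESeq2. The median log2 fold change of the 6 members was 0.05 in all and in low-Ttr libraries, beside 0.003 over all tested genes in both. At these shares of called genes, 0 of 6 is no result about the members.

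**Figure D3:**
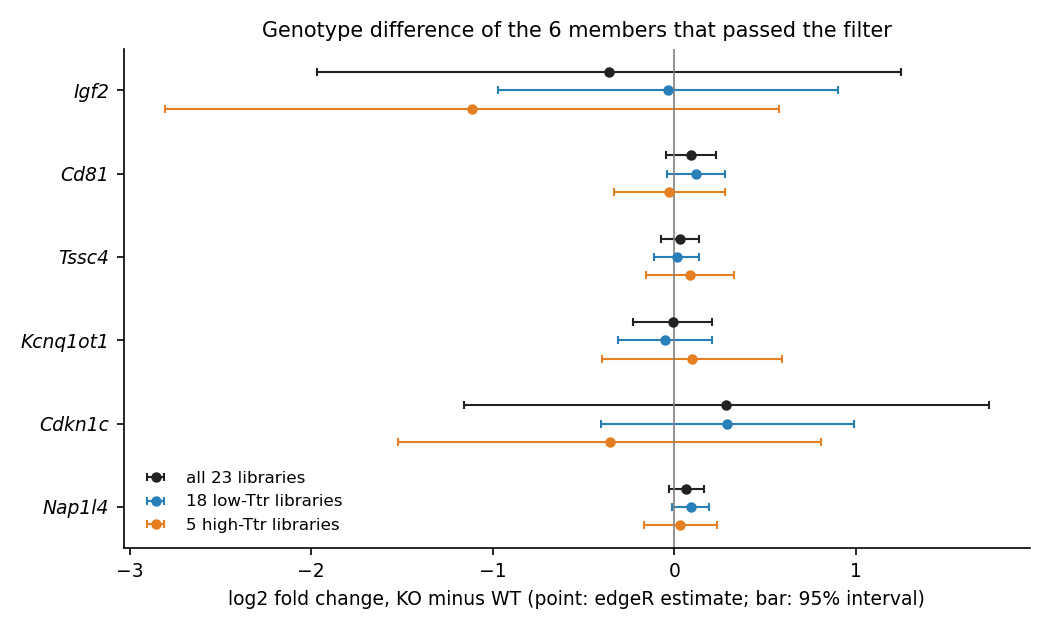
Log2 fold change, KO minus WT, of the 6 tested members (rows) over all 23, 18 low-Ttr and 5 high-Ttr libraries, with points for the edgeR estimates and bars for 95% intervals. Every bar crosses 0, and those of Igf2 and Cdkn1c are several times wider than those of Tssc4 and Nap1l4.

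The other genes near Ins2 were similar in this respect. Of 76 genes starting within 1 Mb of Ins2, 19 were tested, 6 of them members, and 0 were called by edgeR, DESeq2 or limma voom. Among the 13 that were not members the median log2 fold change was -0.01 in both all and low-Ttr libraries, and 1 gene in each direction had an edgeR unadjusted p below 0.05, while DESeq2 and limma voom gave 2 genes each. Of all tested genes edgeR, DESeq2 and limma voom gave 5.74%, 6.17% and 17.5% such a p in all libraries and 10.1%, 10.5% and 23% in low-Ttr libraries. Over all libraries but KO library 8, edgeR gave 0 higher and 1 lower, which was Ifitm10. Ifitm10, of the interferon-induced transmembrane family, averaged 15.4 ± 1.89 CPM over 12 WT libraries (SD) and 12.9 ± 2.05 CPM over 11 KO libraries (SD), with log2 fold change -0.26 (SE 0.0837, edgeR p = 0.00534, adjusted p = 0.781). Cars, a cysteinyl-tRNA synthetase gene, averaged 32.2 ± 3.19 CPM in WT and 35.1 ± 3.37 CPM in KO, with log2 fold change 0.12 (SE 0.0583, edgeR p = 0.0431, adjusted p = 0.781), and an unadjusted p of 0.0667 without KO library 8. A list of 23 other genes of the domains and their flanks shares genes with the 1 Mb window. Of these 23, 14 were tested and 0 were called by any of these tools. By each tool 2 had an unadjusted p below 0.05, and by edgeR these were again Ifitm10 and Cars. Without KO library 8 edgeR gave 1, Ifitm10. With that library kept, the median was -0.02 in all libraries and 0.001 in low-Ttr libraries.

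**Figure D4:**
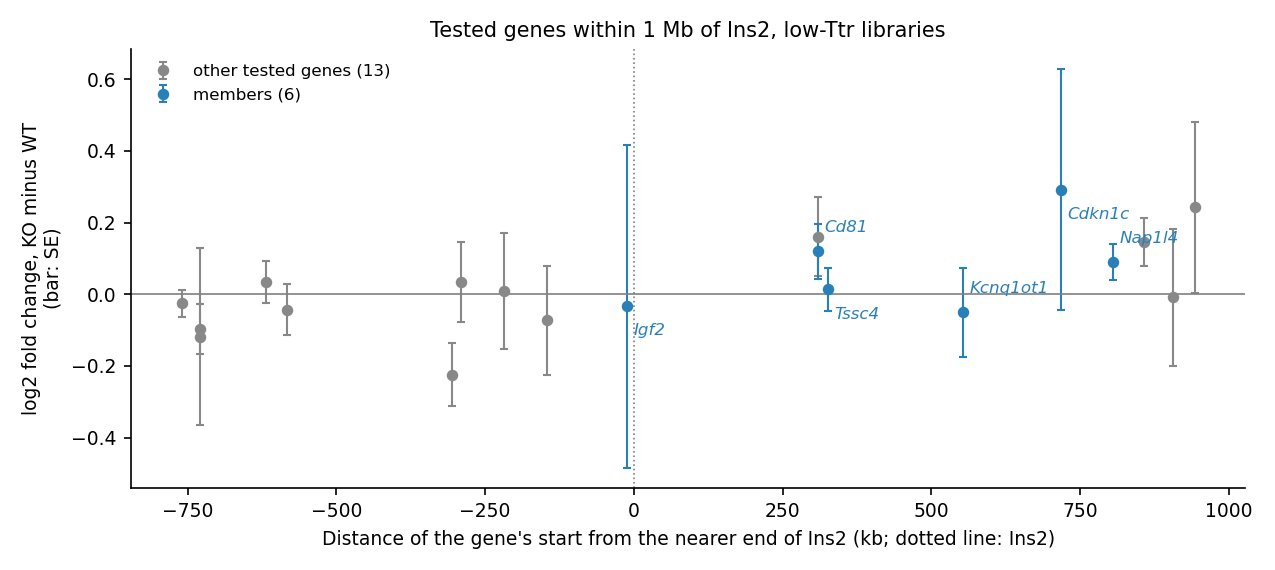
Log2 fold change, KO minus WT, in low-Ttr libraries (vertical axis, bars SE) of the 19 tested genes starting within 1 Mb of Ins2 against the distance of their start from the nearer end of Ins2 in kb. The 6 members are blue and the 13 others grey, and the points lie on both sides of 0 at near and far distances.

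Imprinted genes of other chromosomes or domains were set beside the members. Of 32 listed, 31 were tested and edgeR, DESeq2 and limma voom called 0. In low-Ttr libraries 27 had a positive and 4 a negative log2 fold change, with a median of 0.24 beside 0.003 over all tested genes, and 16 had an edgeR unadjusted p below 0.05, all with higher means in KO (10 by DESeq2, 9 by limma voom). Of all tested genes 10.1%, 10.5% and 23% had such a p by these tools. Without KO library 8 the median was 0.05, 20 were positive and 1 had an edgeR unadjusted p below 0.05, as 7.85% of all tested genes did. The smallest p belonged to Nap1l5, a paternal-copy gene, at 245.9 ± 56.0 CPM over 10 WT libraries (SD) and 411.3 ± 336.1 CPM over 8 KO libraries (SD), with log2 fold change 0.74 (SE 0.263, edgeR p = 0.00989, adjusted p = 0.474), and 0.26 without KO library 8 (SE 0.129, edgeR p = 0.0555, adjusted p = 0.629). Ube3a, a ubiquitin ligase gene read from the maternal copy in neurons, was next, with log2 fold change 0.12 (SE 0.0448, edgeR p = 0.0115, adjusted p = 0.474). It was the 1 gene with an unadjusted p below 0.05 without KO library 8, at 0.11 (SE 0.0433, edgeR p = 0.0196, adjusted p = 0.591). The growth regulator gene Dlk1, read from the paternal copy, averaged 7.93 ± 10.2 CPM over 10 WT libraries (SD) and 40.4 ± 90.4 CPM over 8 KO libraries (SD), with log2 fold change 2.33 (SE 0.855, edgeR adjusted p = 0.474). Magel2, a paternal-copy gene of the Prader-Willi domain, averaged 3.43 ± 2.70 CPM in WT and 13.7 ± 31.7 CPM in KO, with log2 fold change 1.98 (SE 0.763, edgeR adjusted p = 0.474). The SD of Dlk1 and Magel2 exceeded the mean in KO. Without KO library 8 the log2 fold change of Dlk1 was 0.08 (SE 0.635, edgeR adjusted p = 0.986), and that of Magel2 turned to -0.48 (SE 0.399, edgeR adjusted p = 0.761). KO library 8, with a hypothalamic sum of 1606 CPM, was the highest of all 23 libraries for 25 of the 32.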

How the data were processed

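The deposited file is a single table of gene-level estimated counts made by the authors, and between 24.57% and 27.15% of a library's non-zero values were fractional. The submitters' processing notes name bcl2fastq, STAR and mm10 without version or role, and the counting program, its annotation and its use of strand are not given in the sources used here. Per the labels' protocols, the library kit was a stranded one for mRNA. Columns were assigned through the library names in the sample descriptions. The labels name separate samples but not their animals, so p-values measure the spread between these samples. Any 2 libraries of a genotype differed by more than counting noise (chi-square per degree of freedom at least 6.91). Positions were found for 45143 identifiers (98.8%).

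Counts were rounded and fitted with edgeR 4.0.16 (R 4.3.3): filterByExpr by genotype, TMM, robust quasi-likelihood F test, Benjamini-Hochberg adjustment over all tested genes, calls at an adjusted p below 0.05. The 15828 tested genes held 99.84% of the counts. SEs follow from the fold change and F. The Ttr classes were fitted as 4 cells that share the spread. CPM use TMM-scaled totals, log2 CPM a prior count of 2. Correlations used 100000 resamples (numpy 2.4.6, scipy 1.17.1, Python 3.11.15). The fits were tested on simulated data. Alternatives were DESeq2 1.42.0, limma 3.58.1 (voom with quality weights per sample, in short limma voom), RLE factors, other filters, marker scores or Ttr class as terms, other Ttr borders and leaving out each library. Members, lists and tests were chosen with earlier results of these data known. Named genes are the members, up to 4 genes of smallest p per list or within 1 Mb, the 3 most alike per tested member and defining markers. Ccnd1, Gm26793, Cenps and H2-Aa were named after their values were seen. Counting limits cover counting error only, since PCR reads are not independent molecules.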

Additional observations from a re-analysis of the deposited data

Results flagged for a closer look

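Among 20 groups of 8 or 10 low-Ttr libraries, 1 group per member and genotype, 7 held a library whose gap to the next value was wide against the range of the group by Dixon's test. Chance flags about 1 in 20 groups of evenly spread values. That rate does not hold for skewed levels or for counts of 0 to 3, where a single count among zeros is always flagged, so 7 of 20 is no measure of excess.

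In low-Ttr WT libraries, Igf2 stood at 75.1 CPM in WT library 11, with 36.5 CPM in the next library, and the meninges genes summed to 198.2 CPM there, the highest of that group. The same library held the highest H19 value of the group, 0.182 CPM against 0.0897 CPM in WT library 15, and its only Phlda2 count, 0.0605 CPM. Th was 1.08 CPM in WT library 15, against 0.268 CPM in the next.

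In low-Ttr KO libraries, Th was 36.7 CPM in KO library 8 against 0.742 CPM in KO library 21, and Nap1l4 was 137.4 CPM in KO library 8 against 113.7 CPM in KO library 4. Phlda2 was 0.0866 CPM, 2 counts, in KO library 13 and 0 in the other 7. The Phlda2 and H19 values rest on 1 to 3 counts.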

How the results depend on the processing

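No member was called by edgeR, DESeq2 or limma voom, or under the planned and added alternatives with other size factors, filters, Ttr borders or score terms, or in any of the 23 fits without 1 library. The number of all genes called moved. Over all libraries it went from 2 to 4 with DESeq2, to 4 with limma voom with quality weights, and to 1 with a mean of at least 50 counts. Limma voom with quality weights changes the tool and the weighting of samples together. In low-Ttr libraries the same settings moved the number from 3 to 12, 138 and 1. It was also 1 when these libraries were fitted alone, alone with the meninges score, and alone with the score but without KO library 8. Leaving out 1 library gave 2 to 3 genes (all), 2 to 4 (low), 1 to 2 (high) and 0 to 1 (difference between classes). Several log2 fold changes changed sign, none of them called. Igf2 over all libraries became 0.82 with DESeq2 and 0.088 with limma voom, and in low-Ttr libraries 0.075 with limma voom. With the meninges score as a term over all libraries Cdkn1c became -0.38 and Kcnq1ot1 0.014, and 0.02 with both scores. Tssc4 in low-Ttr libraries fitted alone with the score became -0.0035, and -0.018 without KO library 8. The cause was not tested. The ratio of Igf2 to meninges genes, -0.51, became -0.087 with blood vessel genes and ran from -0.603 to -0.427 without 1 library. Leave-one-out ranges that crossed 0 were, over all libraries, -0.93 to 0.80 for Igf2, -0.051 to 0.03 for Kcnq1ot1, -0.40 to 1.45 for Cdkn1c and -0.036 to 1.20 for Slc22a18. In low-Ttr libraries they were -0.29 to 0.28 for Igf2, -0.0098 to 0.041 for Tssc4 and -0.10 to 0.0026 for Kcnq1ot1. In high-Ttr libraries, examined in this way for Igf2, Cdkn1c and Slc22a18 only, they were -1.74 to 0.043 for Igf2, -1.06 to 1.08 for Cdkn1c and -0.68 to 1.04 for Slc22a18, and for the difference between classes, examined for Igf2 only, -1.71 to 0.075. A fit that leaves 1 WT library in the high-Ttr class assumes that it varies like the others. Borders of 5000 and 20000 Ttr counts gave the same classes. No paired analysis was possible because no replicate number occurs in both genotypes. Depth limits H19, Th, Phlda2 and Slc22a18, which were below the filter.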
